A study of Mus musculus with 24 samples.

Results

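The genes described here are 9 members of the Robo, Slit, Unc5 and netrin families of guidance genes: the receptors Robo1, Robo2, Robo4, Unc5b and Unc5c, and the ligands Slit2, Slit3, Ntn1 and Ntn4. They were chosen by name, and their rows were found by matching Ensembl gene identifiers to mouse gene symbols in GENCODE's mouse annotation of mm10. They make up 9 of 35727 genes in the count table and 9 of the 14804 genes with enough counts to be tested. Every member passed that filter. Robo4 did so through its SEG and Erg libraries, since none of its 6 control libraries reached the minimum count, and Unc5c reached it in 3 of 6 Sox17 libraries.

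Messenger RNA was sequenced from mouse heart cells grown in EGM2, a medium made for endothelial cells, in 4 conditions: SEG, Erg, Sox17 and control. Each condition was harvested at day 7 and at day 3, with 3 libraries a group and 24 in all. The labels call the control cells fibroblasts and the cells of the other conditions iEC, and the design text, which calls them aiECs, states that the conditions were compared for endothelial identity. SEG is not spelled out, the means by which the factors were brought into the cells is not given, and strain, sex, age and number of animals are not stated. The 3 libraries of each group may be technical repeats or separate cultures, since no label tells, so p-values speak only of the spread among them.

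Slits are large secreted proteins that bind Robo receptors, and the pair was first known for repelling axons and migrating cells. Netrins are secreted, laminin-related proteins that bind receptors of the Dcc and Unc5 families, with attraction or repulsion depending on the receptor. In blood vessels, Robo4 is the endothelial member of the Robo family, Robo1 and Robo2 carry Slit signals in sprouting endothelium, and Unc5b is the vascular Unc5 receptor, found in arteries and tip cells. Robo4 lacks much of the extracellular part through which Robo1 and Robo2 bind Slits, and binding of Robo4 to Unc5b has been described.

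Levels are CPM, the counts of a gene per 1000000 counts of the scaled library. Total counts ran from 18794422 to 44586227 a library. Differences were tested with edgeR's quasi-likelihood test with Benjamini-Hochberg adjustment over all genes tested, and those with an adjusted p under 0.05 are called. The factors matched the labels in 24 of 24 libraries: Sox17 stood at 461 to 1653 CPM in libraries named SEG or Sox17 and at most at 0.508 CPM elsewhere, and Erg at 836 to 7133 CPM in libraries named SEG or Erg and at most at 0.113 CPM elsewhere. The factors were not at equal levels. Erg stood at 836 to 1039 CPM in SEG and 4327 to 5809 CPM with Erg at day 7. At day 3 it stood at 1254 to 1281 and 7039 to 7133 CPM. Sox17 stood at 461 to 819 CPM in SEG and 616 to 1322 CPM with Sox17 at day 7. At day 3 it stood at 955 to 1054 and 1549 to 1653 CPM. The part of these levels in the SEG comparisons was not tested. Gene counts cannot separate transcripts of a delivered factor from endogenous ones. At day 7, the first replicates of SEG and of Sox17 were unlike their group mates. Ribosomal protein genes took 5.79% and 8.49% of their counts, against 3.38% to 5.25% in the other 22 libraries. In SEG at day 7, replicate 1 lay below both other libraries for 8 of the 9 members, all but Robo4, and in Sox17 at day 7 likewise. Values without both are given where a call or a direction changed or a called value moved by over 1.5 times. The 8 fibroblast markers summed to 11553 to 13242 CPM in SEG, 7809.6 to 14294 CPM with Erg, 4776 to 11508 CPM with Sox17 and 16362 to 22717 CPM in control, with none at 0. Over all libraries, summed markers of macrophages ran from 14.1 to 142 CPM, of cardiomyocytes from 5.73 to 94.5 CPM, of Schwann cells and nerve from 24.8 to 287 CPM and of mesothelium from 1.89 to 22.5 CPM. The 8 mural cell markers summed to 1197 to 1912 CPM in SEG, 666 to 1014 CPM with Erg, 1410.4 to 3185 CPM with Sox17 and 892 to 1508 CPM in control, with Kcnj8 at 0 throughout SEG at day 3 and Sox17 at both days. The 4 lymphatic endothelial markers summed to 197 to 230.4 CPM, 570.2 to 1108 CPM, 356 to 484 CPM and 315 to 407 CPM in the same order. The part of any of these lists in the results was not tested. In bulk libraries, fewer cells of a type and less RNA per cell cannot be told apart.

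The bases just before the start of Robo4, Robo2 and Slit2 are shown because these 3 genes differed widely between the Erg and the Sox17 libraries, a choice made with the values known. Each is the 250 bases before the RefSeq start, 5′ to 3′ on the gene's strand (GRCm38.p6), with GGAA or its complement TTCC, the core letters that ETS factors such as Erg bind, and ACAAT or its complement ATTGT, the core letters that SOX factors bind, in capitals.
Robo4, chr9:37401722-37401971, plus strand: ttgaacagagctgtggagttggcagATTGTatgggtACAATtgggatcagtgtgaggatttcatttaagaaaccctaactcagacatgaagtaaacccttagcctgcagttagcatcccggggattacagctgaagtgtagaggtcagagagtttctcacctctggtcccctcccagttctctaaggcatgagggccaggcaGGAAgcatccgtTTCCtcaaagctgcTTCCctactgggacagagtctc
Robo2, chr16:74411826-74412075, minus strand: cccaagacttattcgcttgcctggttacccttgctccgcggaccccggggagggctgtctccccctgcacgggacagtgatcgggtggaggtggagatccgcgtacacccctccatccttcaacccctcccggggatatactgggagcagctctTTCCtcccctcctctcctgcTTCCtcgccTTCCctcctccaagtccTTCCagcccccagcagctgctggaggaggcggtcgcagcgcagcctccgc
Slit2, chr5:47982905-47983154, plus strand: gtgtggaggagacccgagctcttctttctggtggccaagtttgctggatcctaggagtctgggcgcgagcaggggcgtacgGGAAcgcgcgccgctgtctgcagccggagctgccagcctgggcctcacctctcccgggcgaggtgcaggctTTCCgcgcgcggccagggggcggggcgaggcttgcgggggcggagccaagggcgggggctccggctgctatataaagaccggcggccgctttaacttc
The Robo4 window held 3 GGAA matches, all within 48 bases of the start, and 2 ACAAT matches, between 210 and 225 bases before it. That RefSeq start lies 75 bases inside the GENCODE gene of Robo4, so the 3 GGAA matches lie within that gene and not before it. In Robo2, the only entry of 3 whose start is the start of the GENCODE gene, there were 4 GGAA matches, all read as TTCC, 47 to 96 bases before the start. Slit2 held 2 GGAA matches. Neither Robo2 nor Slit2 held ACAAT in these letters. Of 32851 mouse promoters of the same length, 93.4% held GGAA on either strand and 27.7% held ACAAT, and the motifs share no position in these windows. Among the members, 8 of 9 matched an entry, and Ntn1 did not. A match describes letters and is neither a binding site nor a cause.

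Against control, the 9 genes moved in both directions under each factor. The comparisons of a day share their control libraries. At day 7 in SEG, 5 rose, where 22.5% of all genes tested rose, and 1 fell, where 21.8% fell. With Erg at day 7, 3 rose (23.7% of all genes) and 4 fell (24.8%), and with Sox17 at day 7, 4 rose (29.5%) and 2 fell (25%). At day 3 in SEG, 5 rose (20%) and 2 fell (20.2%). With Erg at day 3, 3 rose (22.6%) and 4 fell (23.5%), and with Sox17 at day 3, 5 rose (20.8%) and 3 fell (19.6%). In either direction, 6 members were called in SEG, 7 with Erg and 6 with Sox17 at day 7, beside 44.3%, 48.5% and 54.5% of all genes. At day 3 these were 7, 7 and 8 members, beside 40.2%, 46.1% and 40.4%. Robo2 and Robo4 rose in 6 of 6 comparisons with control and Unc5c fell in 5 of 6. The Robo4 calls with Sox17 rested on 30 counts against 3 at day 7 and 8 against 0 at day 3, and neither was stable. The ligand genes Slit2, Slit3 and Ntn4 rose in SEG and with Sox17 at day 3 and fell with Erg at both days, while Ntn1 rose with Erg and fell with Sox17. The members' median log2 change was 0.81 in SEG, −0.58 with Erg and 0.04 with Sox17 at day 7, beside 0.01, −0.02 and 0.05 over all genes tested. At day 3 the members' medians were 0.95, −0.46 and 0.87 (0.80 for Sox17 with Robo4 at its bound), beside 0.01, −0.01 and 0.01.

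**Figure D1:**
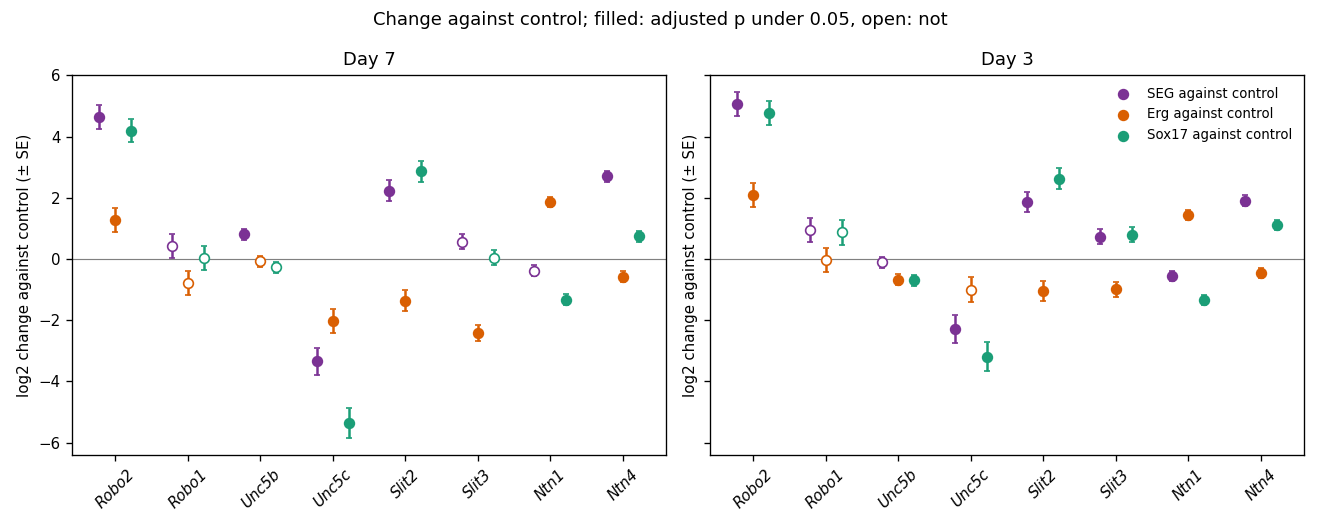
Log2 change against control (y axis, ± SE from edgeR's fit) of the guidance genes other than Robo4 (x axis) in SEG, Erg and Sox17, at day 7 on the left and day 3 on the right; filled points passed an adjusted p of 0.05. Robo2 lies above 0 in all 6 comparisons and Unc5c below it, while Ntn1 lies above 0 with Erg and below it with Sox17; Robo4 is left out because control held 0 and 3 counts.

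Robo4 (ENSMUSG00000032125, chromosome 9, 37401897 to 37415115, plus strand), the endothelial Robo receptor, was counted in SEG and Erg libraries and barely in the rest. It stood at 98.4, 89.1 and 87.4 CPM in SEG at day 7 and 20.4, 20.7 and 21.2 CPM at day 3, and with Erg at 27.5, 26.2 and 25.6 CPM at day 7 and 14.01, 14.9 and 13.1 CPM at day 3. With Sox17 the libraries held 8, 19 and 3 counts at day 7 and 2, 3 and 3 counts at day 3, against 3, 0 and 0 counts in control at day 7 and none in 3 control libraries at day 3, which allows up to 0.0520 CPM over that group. All 12 SEG and Erg libraries lay above all 12 Sox17 and control libraries, and the SEG day 7 libraries lay above every other group. The ratio to control at day 7 was 1925 in SEG (95% counting interval 658 to 9337) and 555 with Erg (189.6 to 2694). These intervals cover counting error only, and all 3 control counts came from replicate 1. Without it, Robo4 was at least 1388-fold higher in SEG and 400.3-fold higher with Erg than a floor of 3 counts over the remaining control libraries. Without replicate 3 of control, the ratios were 1206 and 348, and without replicate 2 they were 1256 and 362. At day 3, against a floor of 3 counts over the control group, Robo4 was at least 399.5-fold higher in SEG and at least 266-fold higher with Erg. These 4 differences from all control libraries of a day passed (edgeR adjusted p = 1.98e-13, 8.22e-12, 9.88e-12 and 4.49e-11, in the order given). Beside this, 9 endothelial markers other than Erg summed to 1779.8 to 2717 CPM in SEG, 1209 to 1608 CPM with Erg, 692 to 912 CPM with Sox17 and 596 to 692 CPM in control, with Cldn5 at 0 in Sox17 and control libraries, and their part in the Robo4 difference was not tested.

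In SEG, Robo4 also exceeded Erg alone, by a log2 change of 1.79 ± 0.21 at day 7 (SE, edgeR adjusted p = 1.39e-06) and of 0.57 ± 0.21 at day 3 (adjusted p = 0.0337). The day 3 difference did not pass when any 1 of the 6 libraries was left out (log2 change 0.52 to 0.62, edgeR adjusted p from 0.0560 to 0.107). Robo4 rose between day 3 and day 7 in SEG (log2 change 2.14 ± 0.22, edgeR adjusted p = 6.86e-07) and with Erg (0.92 ± 0.21, adjusted p = 0.00311). The Sox17 libraries sat near the limit of counting: the ratio to control at day 7 was 5.90 (1.84 to 30.2, edgeR adjusted p = 0.00986), the groups overlapped, and at day 3 the level was at least 1.62-fold higher than the control floor (adjusted p = 0.0479). Neither Sox17 call was stable. At day 7 it was lost without replicate 2 or 3 of control or replicate 2 of Sox17 (edgeR adjusted p from 0.0524 to 0.0652), and at day 3 without any control library or replicate 2 or 3 of Sox17 (0.0803 to 0.107) and with no filter on low counts (0.0561).

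Robo2 (ENSMUSG00000052516, chromosome 16, 73891839 to 74411825, minus strand), a receptor through which Slits act on axons and vessels, was low in control, somewhat higher with Erg and far higher with Sox17 and in SEG. Robo2 stood at 32.9, 51.3 and 50.03 CPM in the SEG libraries of day 7, and at 49.4, 41.2 and 53.7 CPM in those of day 3. Erg libraries held 4.53, 5.53 and 3.14 CPM at day 7 and 6.16, 5.08 and 7.01 CPM at day 3. Sox17 libraries held 12.8, 42.7 and 42.5 CPM at day 7, against 2.21, 1.32 and 1.86 CPM in control. At day 3 the values of Robo2 were 46.5, 38.1 and 34.7 CPM with Sox17 and 1.56, 1.34 and 1.43 CPM in control. The 12 SEG and Sox17 libraries lay above all Erg libraries, which in turn lay above all control libraries. Against control, the log2 change at day 7 was 4.65 ± 0.38 in SEG, 1.28 ± 0.39 with Erg and 4.19 ± 0.38 with Sox17 (SE, edgeR adjusted p = 3.71e-09, 0.0101 and 1.27e-08). The change at day 3 was 5.06 ± 0.40 in SEG, 2.08 ± 0.40 with Erg and 4.78 ± 0.39 with Sox17 (adjusted p = 2.27e-09, 2.20e-04 and 4.30e-09). SEG exceeded Erg by 3.36 ± 0.35 at day 7 and 2.98 ± 0.34 at day 3 (edgeR adjusted p = 9.55e-08 and 3.35e-07). Between SEG and Sox17 the log2 difference was 0.46 ± 0.31 at day 7 (adjusted p = 0.246) and 0.27 ± 0.30 at day 3 (0.586), and neither passed. Same-numbered libraries of SEG and Sox17 at day 7 deviated together. With a replicate block within these groups the day 7 difference passed (0.60, adjusted p = 0.00960). It did not pass without both outlying libraries (0.25, edgeR adjusted p = 0.182). The Erg rise at day 7 was not called without replicate 2 of control (log2 change 1.10, edgeR adjusted p = 0.0511).

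Robo1 (ENSMUSG00000022883, chromosome 16, 72308306 to 73046095, plus strand), the other Slit receptor of the pair and a neighbour of Robo2 across a gap of 845743 bases, was counted in all conditions and was called in none of the 6 comparisons with control. In SEG, Robo1 reached 40.2, 88.0 and 91.5 CPM at day 7 and 114, 105 and 122 CPM at day 3. With Erg, Robo1 was at 30.4, 39.4 and 25.0 CPM at day 7 and at 56.5, 56.6 and 59.6 CPM at day 3. At day 7, Robo1 was at 13.2, 74.6 and 79.7 CPM with Sox17 and 56.6, 54.4 and 52.5 CPM in control. Sox17 libraries of day 3 held 126, 109 and 88.3 CPM, against 58.5, 59.8 and 58.7 CPM in control. At day 3 the SEG and Sox17 libraries lay above those of Erg and control, while at day 7 replicate 1 of SEG and of Sox17 lay far below the other libraries of its group. Against control, the day 7 log2 change was 0.43 ± 0.40 in SEG, −0.79 ± 0.40 with Erg and 0.03 ± 0.40 with Sox17 (SE, edgeR adjusted p = 0.417, 0.115 and 0.955). The change at day 3 was 0.95 ± 0.40 in SEG, −0.04 ± 0.40 with Erg and 0.87 ± 0.40 with Sox17 (adjusted p = 0.0680, 0.956 and 0.0922). With both outlying libraries left out, Robo1 rose at day 7 in SEG (0.76, edgeR adjusted p = 2.23e-05) and with Sox17 (0.54, edgeR adjusted p = 8.45e-04). At day 3, DESeq2 called the rise in SEG (adjusted p = 0.0441), and fits of only the groups compared called Robo1 in SEG (7.29e-09) and with Sox17 (1.69e-05) at day 3 and with Erg at day 7 (−0.74, adjusted p = 4.93e-04). Those fits called 65.0%, 61.2% and 66.6% of all genes in these comparisons, against 40.2%, 40.4% and 48.5% in the fit of all 24 libraries.

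SEG exceeded Erg for Robo1 by 1.21 ± 0.41 at day 7 (SE, edgeR adjusted p = 0.0176) and 0.98 ± 0.40 at day 3 (0.0474). Leaving out any 1 of the 6 libraries at day 3 ended that call (log2 change 0.93 to 1.04, edgeR adjusted p from 0.0689 to 0.106), as did RLE size factors (0.0552) and no filter on low counts (0.0552). At day 7 it was lost without replicate 2 or 3 of SEG or replicate 1 or 3 of Erg (log2 change 1.02 to 1.19, edgeR adjusted p from 0.0517 to 0.0742). The day 7 difference between SEG and Sox17 was 0.39 ± 0.40 (adjusted p = 0.449). It passed with the replicate block within these groups (0.64, adjusted p = 0.00807), but not without both outlying libraries (0.22, edgeR adjusted p = 0.198). Without replicate 1 of Sox17 it was −0.0715 (edgeR adjusted p = 0.827). Within a library, where scaling cancels, the ratio of Robo2 to Robo1 counts was 0.650 ± 0.148 in SEG, 0.138 ± 0.0117 with Erg, 0.692 ± 0.241 with Sox17 and 0.0329 ± 0.00773 in control at day 7 (SD, n = 3). The ratios at day 3 were 0.422 ± 0.0271, 0.105 ± 0.0143, 0.370 ± 0.0227 and 0.0245 ± 0.00218 in the same order. All SEG and Sox17 libraries lay above the Erg libraries on this ratio, and these above control. The outlying libraries of SEG and Sox17 had the highest ratio of their groups, 0.819 and 0.969.

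Slit2 (ENSMUSG00000031558, chromosome 5, 47983138 to 48307733, plus strand), a secreted Robo ligand, parted by factor: higher in SEG and with Sox17, lower with Erg. Slit2 stood at 232, 477 and 487 CPM in the SEG libraries of day 7, and at 388, 380.3 and 440.2 CPM in those of day 3. Erg libraries held 31.3, 40.0 and 27.9 CPM at day 7 and 51.2, 55.0 and 55.6 CPM at day 3. Sox17 libraries held 225, 743 and 883 CPM at day 7, against 91.2, 82.7 and 79.6 CPM in control. At day 3 the values of Slit2 were 754, 699 and 585 CPM with Sox17 and 112, 109 and 109.9 CPM in control. All SEG and Sox17 libraries lay above control, including the outlying ones, and all Erg libraries lay below it. At day 7 the change against control was, on the log2 scale, 2.24 ± 0.34 in SEG, −1.36 ± 0.33 with Erg and 2.87 ± 0.34 with Sox17 (SE, edgeR adjusted p = 1.41e-05, 0.00206 and 6.46e-07). The day 3 change was 1.87 ± 0.33 in SEG, −1.03 ± 0.33 with Erg and 2.62 ± 0.34 with Sox17 (adjusted p = 1.16e-04, 0.0135 and 2.44e-06). The log2 difference of SEG from Sox17 was −0.63 ± 0.32 at day 7 (adjusted p = 0.126) and −0.75 ± 0.32 at day 3 (0.0910), and neither difference passed. The day 7 difference did pass with the replicate block within these groups (−0.49, adjusted p = 0.00429), without replicate 1 of Sox17 (log2 change −1.03, edgeR adjusted p = 2.35e-04) and with both outlying libraries left out (−0.75, edgeR adjusted p = 1.72e-05). At day 3 it passed when only these groups were fitted (−0.76, adjusted p = 8.39e-05), a fit that called 48.8% of all genes.

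Slit3 (ENSMUSG00000056427, chromosome 11, 35121224 to 35708507, plus strand), a Robo ligand that mice need to form the diaphragm, fell with Erg at both days and rose in SEG and with Sox17 at day 3. In SEG, Slit3 reached 211, 400.0 and 405 CPM at day 7 and 253, 232 and 265 CPM at day 3. With Erg, Slit3 was at 44.4, 48.2 and 36.1 CPM at day 7 and at 71.6, 76.4 and 78.5 CPM at day 3. At day 7, Slit3 was at 124, 277 and 310.4 CPM with Sox17 and 268, 215 and 207 CPM in control. Sox17 libraries of day 3 held 283, 262 and 239.6 CPM, against 139, 154 and 158 CPM in control. All Erg libraries lay below all others, and at day 7 the SEG and Sox17 libraries overlapped control. Compared with control, the log2 change at day 7 was 0.56 ± 0.25 in SEG, −2.42 ± 0.26 with Erg and 0.04 ± 0.25 with Sox17 (SE, edgeR adjusted p = 0.0769, 2.41e-07 and 0.900). The day 3 values were 0.73 ± 0.25 in SEG, −0.99 ± 0.25 with Erg and 0.80 ± 0.25 with Sox17 (0.0242, 0.00288 and 0.0144). Without both outlying libraries, Slit3 rose at day 7 in SEG (0.84, edgeR adjusted p = 2.85e-07) and with Sox17 (0.39, edgeR adjusted p = 0.00253), and without replicate 1 of SEG alone it rose in SEG (log2 change 0.85, edgeR adjusted p = 0.00625). The day 3 rise in SEG was lost without replicate 1 or 3 of SEG or replicate 1 or 2 of control (log2 change 0.68 to 0.75, edgeR adjusted p from 0.0547 to 0.0810). The rise with Sox17 was lost without replicate 1 of control (log2 change 0.74, edgeR adjusted p = 0.0550). The day 7 difference between SEG and Sox17, 0.52 ± 0.25 (adjusted p = 0.106), passed with the replicate block within these groups (0.56, adjusted p = 1.39e-04), without both outlying libraries (0.46, edgeR adjusted p = 0.00212) and without replicate 1 of SEG or replicate 3 of Sox17 (log2 change 0.76 to 0.77, edgeR adjusted p from 0.0132 to 0.0242).

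The ratio of Slit2 to Slit3 counts within a library was 1.16 ± 0.0584 in SEG, 0.768 ± 0.0625 with Erg, 2.45 ± 0.551 with Sox17 and 0.370 ± 0.0252 in control at day 7 (SD, n = 3). The ratios at day 3 were 1.61 ± 0.0667, 0.715 ± 0.00625, 2.59 ± 0.129 and 0.737 ± 0.0629 in the same order. SEG and Sox17 libraries had more Slit2 than Slit3 counts, and Erg and control libraries fewer, in every library. Introns of Slit2 and Slit3 hold the microRNA genes Mir218-1 and Mir218-2, on the same strand, and neither was measured here.

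Unc5b (ENSMUSG00000020099, chromosome 10, 60762593 to 60831581, minus strand), the vascular netrin receptor, was among the most abundant of the 9 genes in every group, and its differences were small. SEG libraries held 851, 1107 and 1083 CPM of Unc5b at day 7 and 949, 907 and 959.8 CPM at day 3. The Erg values were 557, 598 and 491 CPM at day 7 and 612, 658 and 616 CPM at day 3. The Sox17 values of day 7 were 276, 544 and 615 CPM, and those of control 573, 585 and 573 CPM. For day 3, they were 668, 609 and 587 CPM with Sox17 and 983, 1009.6 and 1030.2 CPM in control. In SEG at day 7 every library lay above every Erg, Sox17 and control library of that day, and at day 3 SEG and control lay together above Erg and Sox17. The log2 change against control at day 7 was 0.81 ± 0.18 in SEG, −0.07 ± 0.18 with Erg and −0.27 ± 0.18 with Sox17 (SE, edgeR adjusted p = 9.58e-04, 0.758 and 0.211). The day 3 values were −0.10 ± 0.18 in SEG, −0.68 ± 0.18 with Erg and −0.70 ± 0.18 with Sox17 (0.708, 0.00409 and 0.00381). SEG exceeded each single factor at each day, by 0.89 ± 0.18 over Erg and 1.08 ± 0.18 over Sox17 at day 7 (edgeR adjusted p = 3.78e-04 and 7.21e-05), and by 0.58 ± 0.18 and 0.60 ± 0.18 at day 3 (0.0112 and 0.0164). The Sox17 difference did not pass at day 3 without replicate 2 or 3 of Sox17 (log2 change 0.56 to 0.58, edgeR adjusted p from 0.0527 to 0.0620), nor at day 7 in a fit of only these groups (adjusted p = 0.0731). Without replicate 3 of Sox17, Unc5b fell with Sox17 at day 7 against control (log2 change −0.45, edgeR adjusted p = 0.0355).

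Unc5c (ENSMUSG00000059921, chromosome 3, 141465216 to 141834924, plus strand), a netrin receptor of repelled axons, was rare and highest in control. SEG libraries held 0.669, 0.861 and 1.79 CPM of Unc5c at day 7 and 0.511, 0.716 and 0.935 CPM at day 3. The Erg values were 2.03, 3.91 and 2.50 CPM at day 7 and 2.03, 1.61 and 1.73 CPM at day 3. The Sox17 values of day 7 were 0.0227, 0.382 and 0.491 CPM, and those of control 13.2, 12.4 and 8.71 CPM. For day 3, they were 0.378, 0.265 and 0.547 CPM with Sox17 and 3.18, 3.37 and 4.14 CPM in control. Libraries held 1 to 82 counts of it in SEG, Erg and Sox17, against 57 to 273 counts in control. All control libraries of a day lay above all SEG, Erg and Sox17 libraries of that day. Against control, the day 7 log2 change was −3.35 ± 0.43 in SEG, −2.03 ± 0.39 with Erg and −5.36 ± 0.49 with Sox17 (SE, edgeR adjusted p = 1.84e-06, 2.50e-04 and 1.48e-08). Without replicate 1 of Sox17 the day 7 fall with Sox17 was smaller (−4.71, edgeR adjusted p = 6.39e-10), as it was without both outlying libraries (−4.68, edgeR adjusted p = 5.82e-11). At day 3 it was −2.28 ± 0.45 in SEG, −0.997 ± 0.41 with Erg and −3.19 ± 0.48 with Sox17 (3.80e-04, 0.0557 and 1.55e-05), where DESeq2 called the fall with Erg as well (adjusted p = 0.0397), as did a fit of only these groups (3.38e-04). The latter fit called 73.0% of all genes. Unc5c was lower in SEG than with Erg, with a log2 difference of −1.32 ± 0.43 at day 7 and −1.28 ± 0.47 at day 3 (edgeR adjusted p = 0.0156 and 0.0276). It was higher in SEG than with Sox17 by 2.01 ± 0.53 at day 7 (0.00484), and without replicate 1 of Sox17 by less (1.37, edgeR adjusted p = 0.0136). The day 7 Erg difference was lost without replicate 1 or 2 of SEG or replicate 2 of Erg (log2 change −1.16 to −1.02, edgeR adjusted p from 0.0643 to 0.0818), the day 3 one without replicate 1 or 2 of SEG or replicate 1 or 3 of Erg (log2 change −1.30 to −1.10, edgeR adjusted p from 0.0550 to 0.0944), and the Sox17 one without replicate 3 of SEG (log2 change 1.48, edgeR adjusted p = 0.0582) and in a fit of only these groups (0.207). An antisense gene, Gm15688, shares 118 exon bases with Unc5c, and whether strand was used in counting is not given here.

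**Figure D2:**
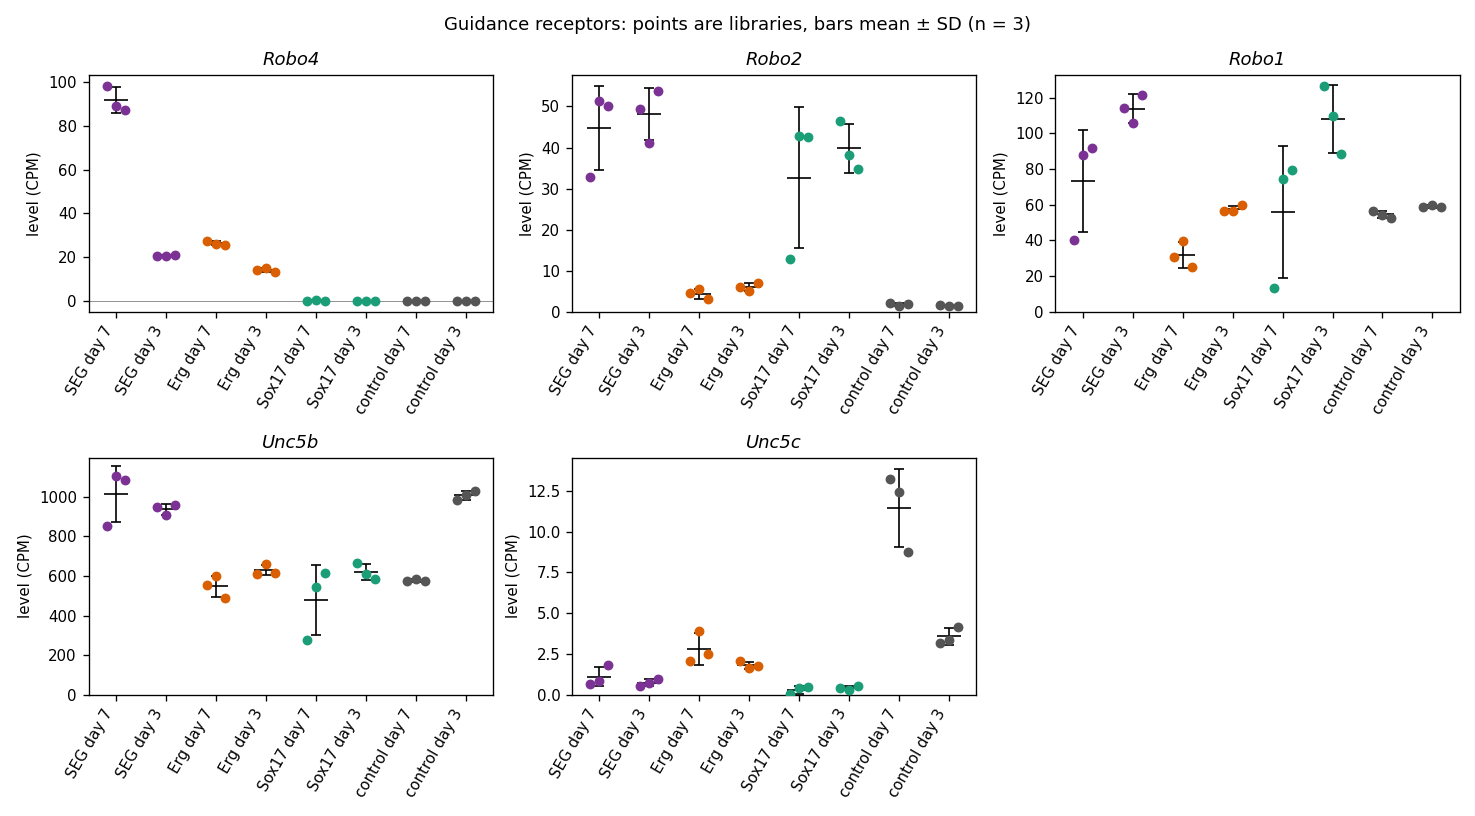
Level in CPM (y axis, linear, from 0 in all panels but that of Robo4) of 5 receptor genes in each group (x axis). Points are libraries and bars the mean ± SD of 3. Robo4 stands above 13 CPM in SEG and Erg libraries only, Robo2 in SEG and Sox17 libraries exceeds every Erg and control library, and Unc5c is highest in control at day 7.

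Ntn1 (ENSMUSG00000020902, chromosome 11, 68209364 to 68400823, minus strand), encoding netrin-1, the best known netrin, was higher with Erg and lower with Sox17 than in control at both days. Ntn1 stood at 36.1, 47.7 and 42.8 CPM in the SEG libraries of day 7, and at 26.9, 22.9 and 25.2 CPM in those of day 3. Erg libraries held 208, 203 and 186 CPM at day 7 and 100.4, 99.6 and 97.0 CPM at day 3. Sox17 libraries held 13.2, 26.2 and 26.1 CPM at day 7, against 53.1, 57.5 and 53.8 CPM in control. At day 3 the values of Ntn1 were 15.2, 14.2 and 14.1 CPM with Sox17 and 38.5, 35.7 and 35.6 CPM in control. The Erg libraries lay above all others, and Sox17 libraries lay below control at each day. At day 7 the change against control was, on the log2 scale, −0.38 ± 0.17 in SEG, 1.86 ± 0.17 with Erg and −1.33 ± 0.17 with Sox17 (SE, edgeR adjusted p = 0.0745, 2.16e-08 and 1.44e-06). The day 3 values were −0.55 ± 0.17 in SEG, 1.44 ± 0.17 with Erg and −1.34 ± 0.17 with Sox17 (0.0128, 7.09e-07 and 2.10e-06). Leaving out both outlying libraries brought the SEG fall at day 7 past the threshold (−0.24, edgeR adjusted p = 0.00429), and the one at day 3 was lost without replicate 2 of SEG (log2 change −0.49, edgeR adjusted p = 0.0579). Ntn1 was lower in SEG than with Erg, with a log2 difference of −2.24 ± 0.17 at day 7 and −1.99 ± 0.17 at day 3 (edgeR adjusted p = 1.30e-09 and 7.21e-09). It was higher in SEG than with Sox17 by 0.95 ± 0.17 and 0.79 ± 0.17 (1.26e-04 and 0.00128). A fit of only SEG and Sox17 at day 7 did not call that difference (adjusted p = 0.0858).

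Ntn4 (ENSMUSG00000020019, chromosome 10, 93640681 to 93747207, plus strand), encoding netrin-4, a netrin of basement membranes that binds laminin, was highest in SEG and lowest with Erg. In SEG, Ntn4 reached 233, 302 and 306 CPM at day 7 and 128, 123 and 128 CPM at day 3. With Erg, Ntn4 was at 27.1, 31.3 and 28.4 CPM at day 7 and at 25.9, 24.7 and 23.5 CPM at day 3. At day 7, Ntn4 was at 43.1, 85.3 and 87.7 CPM with Sox17 and 43.2, 45.8 and 40.5 CPM in control. Sox17 libraries of day 3 held 70.7, 76.5 and 71.9 CPM, against 33.3, 33.0 and 35.6 CPM in control. Every SEG library lay above every other library, and at day 7 the outlying Sox17 library fell among the control libraries. Compared with control, the log2 change at day 7 was 2.70 ± 0.18 in SEG, −0.58 ± 0.17 with Erg and 0.74 ± 0.17 with Sox17 (SE, edgeR adjusted p = 1.57e-10, 0.00980 and 0.00122). The day 3 values were 1.90 ± 0.18 in SEG, −0.46 ± 0.18 with Erg and 1.11 ± 0.17 with Sox17 (2.96e-08, 0.0379 and 2.81e-05). SEG exceeded Erg by 3.28 ± 0.19 at day 7 and 2.36 ± 0.18 at day 3 (edgeR adjusted p = 1.31e-11 and 1.17e-09), and Sox17 by 1.96 ± 0.18 and 0.79 ± 0.17 (2.30e-08 and 0.00124). The fall with Erg at day 3 was lost when any 1 of the 6 libraries was left out (log2 change −0.48 to −0.43, edgeR adjusted p from 0.0593 to 0.106), with RLE size factors (0.0537) and with no filter on low counts (0.0665), and the rise with Sox17 at day 7 in a fit of only these groups (0.0931).

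**Figure D3:**
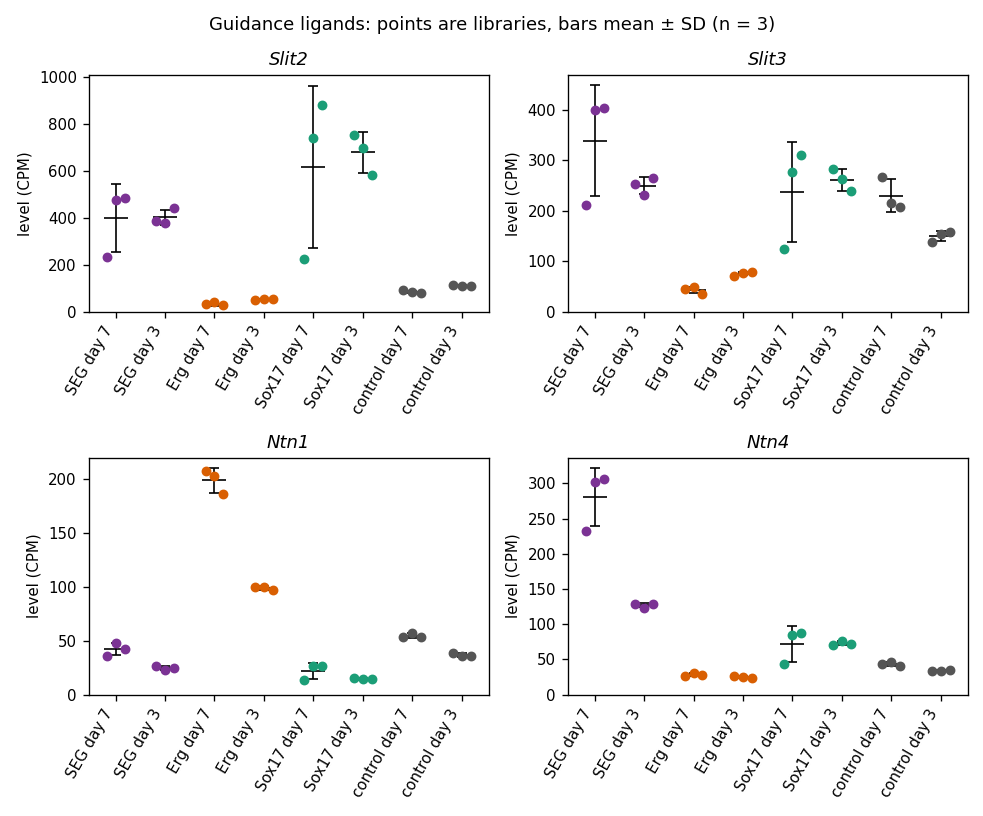
Level in CPM (y axis, linear from 0) of the ligand genes Slit2, Slit3, Ntn1 and Ntn4 in each group (x axis); points are libraries and bars the mean ± SD of 3. Slit2 and Ntn4 are higher in SEG and Sox17 groups, Ntn1 is highest with Erg, and the first points of SEG and Sox17 at day 7 are the outlying libraries.

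The netrin genes changed places between conditions. The ratio of Ntn4 to Ntn1 counts within a library was 6.65 ± 0.443 in SEG, 0.146 ± 0.0134 with Erg, 3.29 ± 0.0559 with Sox17 and 0.788 ± 0.0313 in control at day 7 (SD, n = 3). The ratios at day 3 were 5.08 ± 0.309, 0.249 ± 0.00788, 5.05 ± 0.383 and 0.929 ± 0.0675 in the same order. Ntn4 counts exceeded Ntn1 counts in every SEG and Sox17 library and fell short of them in every Erg and control library. The outlying libraries did not stand apart on this ratio.

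**Figure D4:**
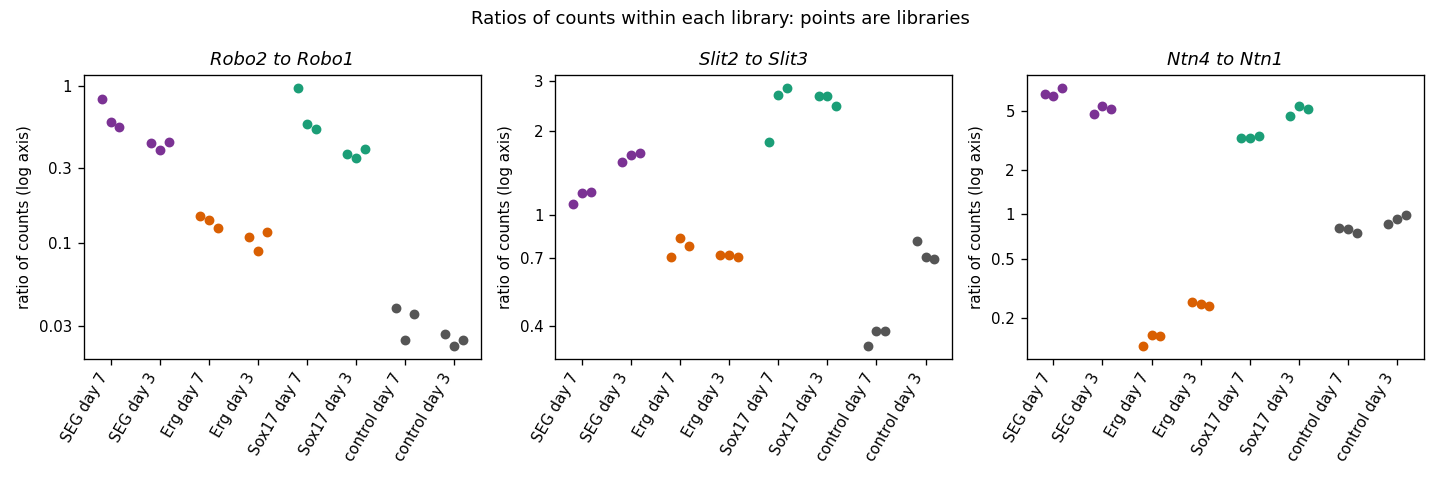
Ratio of counts within each library (y axis, log scale) for Robo2 to Robo1, Slit2 to Slit3 and Ntn4 to Ntn1 in each group (x axis); points are libraries. SEG and Sox17 libraries lie above Erg and control libraries on all 3 ratios; Erg lies above control on the first and below it on the third.

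Set against the single factors, SEG differed from Erg in all 9 members at both days, beside 49.4% of all genes at day 7 and 51% at day 3. Not all of these calls were stable. At day 7 the Robo1 call was lost without any 1 of 4 libraries and the Unc5c call without any 1 of 3. At day 3 the Robo1 and Robo4 calls were each lost without any 1 of 6 libraries, and the Unc5c call without any 1 of 4. Robo1, Robo2, Robo4, Slit2, Slit3, Unc5b and Ntn4 were higher in SEG than with Erg and Unc5c and Ntn1 lower, at day 7, where 24.7% of all genes were higher and 24.8% lower, and at day 3 (25.7% and 25.3%). Against Sox17, 5 members were higher in SEG at day 7 (18.8% of all genes), namely Robo4, Unc5b, Unc5c, Ntn1 and Ntn4, and 4 at day 3 (14%), the same without Unc5c. The share of all genes called between SEG and Sox17 in either direction was 39.9% at day 7 and 28.3% at day 3. With the replicate block within SEG and Sox17 at day 7, all 9 members passed, 8 higher in SEG and Slit2 lower, beside 56.7% of all genes. Without both outlying libraries, Robo1 and Robo2 did not pass and the other members did. A fit of only these groups called 2, beside 15.9%. The members' median log2 difference was 1.79 against Erg and 0.95 against Sox17 at day 7, beside 0.01 and −0.03 over all genes, and 0.98 and 0.60 at day 3, beside 0.02 and 0.00.

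The SEG change was also set against the sum of the log2 changes with Erg and with Sox17. Erg itself was lower in SEG than in Erg libraries at both days. Sox17 was lower in SEG than in Sox17 libraries at day 3, and at day 7 the ranges overlapped. The sum does not adjust for the level of either factor. Robo4 is left out here, since its sum rests on control groups of 0 and 3 counts. At day 7, Slit3, Unc5b, Unc5c and Ntn4 lay above the sum (23.8% of all genes did) and Ntn1 below it (25%). Ntn4 is the plainest case: the single changes at day 7 added up to 0.16, the SEG change was 2.70, and the difference was 2.54 ± 0.25 (SE, edgeR adjusted p = 6.82e-08). Slit3 lay 2.94 ± 0.36 above the sum (1.48e-06), Unc5c 4.04 ± 0.66 (4.54e-05; without replicate 1 of Sox17 3.41, edgeR adjusted p = 7.80e-06) and Unc5b 1.16 ± 0.25 (9.59e-04), and Ntn1 differed by −0.91 ± 0.23 (0.00354). For Slit3 and Unc5c the Erg and Sox17 changes alone summed to −2.38 and −7.39, with SEG at 0.56 and −3.35. The Unc5c sums rest on few counts in the Sox17 libraries, 1, 14 and 13 at day 7 and 14, 9 and 13 at day 3. Without both outlying libraries, Robo1 (0.97, edgeR adjusted p = 9.73e-05), Robo2 (−1.06, edgeR adjusted p = 0.00263) and Slit2 (0.56, edgeR adjusted p = 0.00459) passed too. Robo1 also passed without replicate 1 of SEG or replicate 3 of Sox17 (log2 change 1.43 to 1.49, edgeR adjusted p from 0.0364 to 0.0377) and Robo2 without replicate 1 of Sox17 (log2 change −1.20, edgeR adjusted p = 0.00380).

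At day 3, Unc5b (1.28 ± 0.25, edgeR adjusted p = 5.12e-04), Ntn4 (1.25 ± 0.24, 4.08e-04), Unc5c (1.91 ± 0.68, 0.0330) and Slit3 (0.93 ± 0.35, 0.0466) lay above the sum (18.2% of all genes), and Robo2 (−1.81 ± 0.50, 0.00774) and Ntn1 (−0.65 ± 0.24, 0.0390) below it (17.8%). The Slit3 call was lost when any 1 of the 12 libraries was left out (log2 change 0.87 to 0.99, edgeR adjusted p from 0.0563 to 0.0954), with RLE size factors (0.0539) and with no filter on low counts (0.0672). The Ntn1 call was lost without any 1 of 11 libraries, all but replicate 1 of SEG (log2 change −0.68 to −0.59, edgeR adjusted p from 0.0516 to 0.0907). The Unc5c call was lost without replicate 2 or 3 of SEG, replicate 2 or 3 of Erg, replicate 1 or 2 of Sox17 or replicate 3 of control (log2 change 1.68 to 1.93, edgeR adjusted p from 0.0559 to 0.101).

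**Figure D5:**
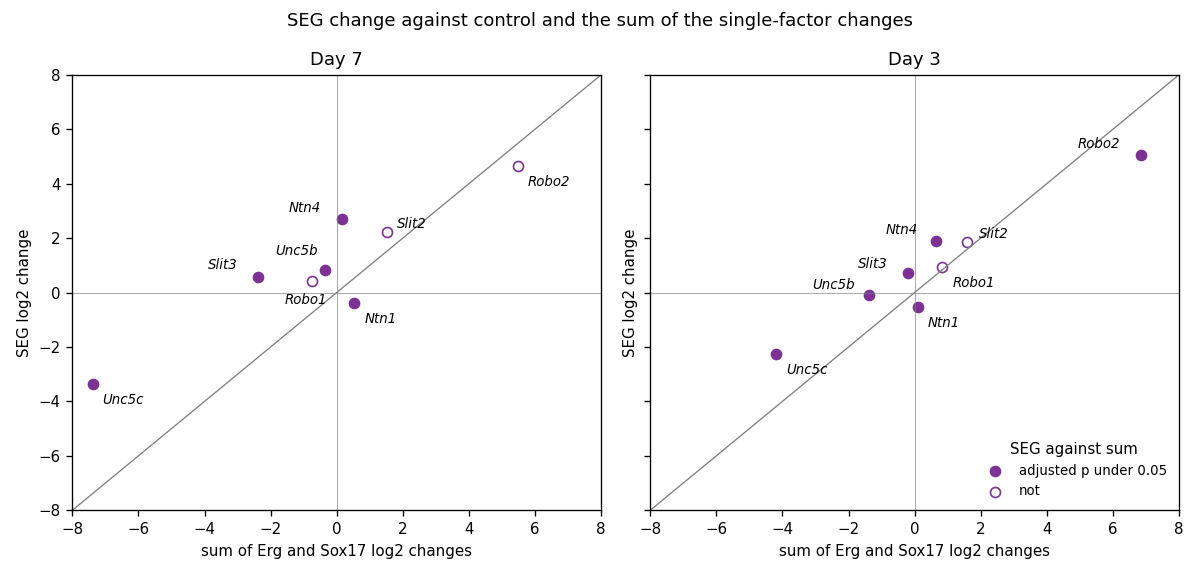
SEG log2 change against control (y axis) and the sum of the Erg and Sox17 log2 changes (x axis) for the members other than Robo4, at day 7 on the left and day 3 on the right; the diagonal marks equality and filled points differ from it at an adjusted p under 0.05. Ntn4, Slit3, Unc5b and Unc5c lie above the diagonal and Ntn1 below it at both days.

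Between the days, Ntn1 was the member that rose in each condition. Its log2 change, day 7 over day 3, was 0.76 ± 0.17 in SEG, 1.01 ± 0.17 with Erg, 0.59 ± 0.17 with Sox17 and 0.58 ± 0.17 in control (SE, edgeR adjusted p = 0.00187, 1.00e-04, 0.0127 and 0.0117). The Sox17 rise was lost without replicate 2 of Sox17 at day 7 (log2 change 0.45, edgeR adjusted p = 0.0544) and in a fit of only these groups (0.300). Of all genes, 27.2% were called in SEG, 30% with Erg, 29.5% with Sox17 and 29.5% in control. In SEG, 3 members rose (14.3% of all genes): Robo4, Ntn1 and Ntn4 (1.15 ± 0.17, adjusted p = 3.54e-05). With Erg, Robo4 and Ntn1 rose (15.6%) and Slit3 fell (−0.82 ± 0.25, 0.0189; 14.4%), a call lost without replicate 3 of either day (log2 change −0.79 to −0.71, edgeR adjusted p from 0.0535 to 0.0880). With Sox17, Ntn1 and Robo4 rose (16.6%), Robo4 on 30 counts at day 7 against 8 at day 3 and not without replicate 2 of day 7 or replicate 1 or 2 of day 3 (log2 change 0.85 to 1.69, edgeR adjusted p from 0.0948 to 0.273). In control, Unc5c (1.68 ± 0.39, 0.00234) and Ntn1 rose (16.1%) and Unc5b fell (−0.80 ± 0.18, 0.00188; 13.4%). Without both outlying libraries, Slit2 and Slit3 rose in SEG (0.28, edgeR adjusted p = 0.0384, and 0.71, edgeR adjusted p = 6.63e-06), Unc5b rose in SEG (0.25, edgeR adjusted p = 0.00552), Slit2 and Ntn4 rose with Sox17 (0.28, edgeR adjusted p = 0.0438, and 0.26, edgeR adjusted p = 0.00115), and Robo1 fell in SEG and with Sox17 (−0.32, edgeR adjusted p = 0.0446, and −0.47, edgeR adjusted p = 0.00450). Single libraries of day 7 also set some of these: Slit3 rose in SEG without replicate 1 of SEG (log2 change 0.71, edgeR adjusted p = 0.0323), Robo1 fell with Sox17 without replicate 2 or 3 of Sox17 (log2 change −1.29 to −1.21, edgeR adjusted p from 0.0276 to 0.0455), Unc5b fell with Sox17 without replicate 3 (log2 change −0.59, edgeR adjusted p = 0.0150) and Ntn4 rose with Sox17 without replicate 1 (log2 change 0.24, edgeR adjusted p = 0.0425).

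The change of an effect between the days was tested directly. Of all genes, 11.9% were called for SEG, 6.09% higher and 5.77% lower. For Erg 19.7% were called, 9.34% higher and 10.4% lower, and for Sox17 14.3%, 7.61% higher and 6.66% lower. For Slit3 the fall with Erg was larger at day 7 (log2 change −2.42) than at day 3 (−0.99), a difference of −1.43 ± 0.36 (SE, edgeR adjusted p = 0.00684). No other member passed for Erg. The SEG effect on Unc5b changed by 0.92 ± 0.25 (0.0216) and on Ntn4 by 0.80 ± 0.24 (0.0361). Unc5b in SEG stood at 1014 ± 141 CPM at day 7 and 939 ± 27.7 CPM at day 3, while control averaged 577 ± 6.99 CPM on day 7 and 1008 ± 23.7 CPM on day 3 (mean ± SD, n = 3). The Sox17 effect on Unc5c changed by −2.17 ± 0.71 (0.0460), and the control level of Unc5c was 11.4 ± 2.40 CPM at day 7 and 3.56 ± 0.511 CPM at day 3. The Unc5b call was lost without replicate 2 or 3 of SEG at day 7 or replicate 2 at day 3 (log2 change 0.85 to 0.89, edgeR adjusted p from 0.0510 to 0.0553). The Ntn4 call was lost without any 1 of 11 libraries, all but replicate 1 of SEG at day 7 (log2 change 0.73 to 0.84, edgeR adjusted p from 0.0531 to 0.0876). The Unc5c call was lost without any 1 of 9 libraries (log2 change −2.39 to −1.51, edgeR adjusted p from 0.0512 to 0.124), all but replicates 2 and 3 of Sox17 and replicate 3 of control at day 7, and with no filter on low counts (0.0605), and without both outlying libraries the value was −1.48, edgeR adjusted p = 0.0460. Leaving out both outlying libraries brought the change of the SEG effect past the threshold for Slit2 (0.68, edgeR adjusted p = 0.00149) and Ntn1 (0.31, edgeR adjusted p = 0.0167), and that of the Sox17 effect for Slit2 (0.68, edgeR adjusted p = 0.00155), Slit3 (−0.41, edgeR adjusted p = 0.0349), Unc5b (0.73, edgeR adjusted p = 2.71e-06) and Ntn1 (0.30, edgeR adjusted p = 0.0253). Unc5b did so without replicate 1 of Sox17 at day 7 alone (log2 change 0.70, edgeR adjusted p = 3.06e-04).

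Ranked by mean level, the groups fell in another order for each gene. Robo4 ran from high to low as SEG day 7, Erg day 7, SEG day 3, Erg day 3, Sox17 day 7, Sox17 day 3, control day 7, control day 3, and the last 4 overlapped their neighbours. Robo2 ran as SEG day 3, SEG day 7, Sox17 day 3, Sox17 day 7, Erg day 3, Erg day 7, control day 7, control day 3, with overlap among the first 4, between the Erg groups and between the control groups. Robo1 ran as SEG day 3, Sox17 day 3, SEG day 7, control day 3, Erg day 3, Sox17 day 7, control day 7, Erg day 7, and 6 of 7 neighbouring pairs overlapped, all but control and Erg at day 7. Slit2 ran as Sox17 day 3, Sox17 day 7, SEG day 3, SEG day 7, control day 3, control day 7, Erg day 3, Erg day 7, with overlap among the first 4. Slit3 ran as SEG day 7, Sox17 day 3, SEG day 3, Sox17 day 7, control day 7, control day 3, Erg day 3, Erg day 7, with overlap among the first 5. Unc5b ran as SEG day 7, control day 3, SEG day 3, Erg day 3, Sox17 day 3, control day 7, Erg day 7, Sox17 day 7, with 4 of 7 neighbouring pairs overlapping. For Unc5c the order was control day 7, control day 3, Erg day 7, Erg day 3, SEG day 7, SEG day 3, Sox17 day 3, Sox17 day 7, and control at day 7 stood clear of the next group. Ntn1 ran as Erg day 7, Erg day 3, control day 7, SEG day 7, control day 3, SEG day 3, Sox17 day 7, Sox17 day 3, with both Erg groups clear of the rest. Ntn4 ran as SEG day 7, SEG day 3, Sox17 day 3, Sox17 day 7, control day 7, control day 3, Erg day 7, Erg day 3, with both SEG groups clear.

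The members can be ordered by level once length is taken into account. Per kilobase of the longest principal transcript, Unc5b had the highest mean level in all 8 groups, at 173 CPM per kilobase in SEG, 93.4 with Erg, 81.5 with Sox17 and 98.3 in control at day 7. In SEG at day 7 it was followed by Ntn4 at 76.9, Slit3 at 64.8, Slit2 at 40.0 and Robo4 at 28.4, then by Robo1 at 9.68, Robo2 at 7.47 and Ntn1 at 7.18, and Unc5c was last at 0.115. With Erg at day 7, Ntn1 came next after Unc5b, at 33.9 CPM per kilobase, and with Sox17 it was Slit2, at 61.9. In control at day 7, Slit3 stood next at 44.0, and Robo2 and Robo4 were last at 0.300 and 0.0176. Which transcript of each gene was made is not known from gene counts, so these per-length levels assume 1 transcript a gene.

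Other genes of the same pathways were listed by role, 53 in all, of which 48 were tested. At day 7 in SEG, 11 rose and 14 fell, with Erg 17 rose and 19 fell, and with Sox17 12 rose and 18 fell; at day 3 the counts were 15 and 16, 18 and 14, and 8 and 18 in the same order. Of all genes, 22.5% rose and 21.8% fell in SEG at day 7, 23.7% and 24.8% with Erg, and 29.5% and 25% with Sox17, and at day 3 20% and 20.2%, 22.6% and 23.5%, and 20.8% and 19.6%. Medians of the 48 lay between −0.34 and 0.02. Among the receptors, Unc5a, a netrin receptor of the nervous system, rose with Erg, by a log2 change of 1.995 at day 7 and 2.29 at day 3. It fell in SEG (−2.15 and −1.70) and with Sox17 (−1.87 and −1.45). Neo1, a netrin and RGM receptor, rose with Erg (0.96 and 0.93) and fell with Sox17 (−0.77 and −0.72). Dcc, the classic netrin receptor, had 1 count in control at each day, against which SEG had a ratio of 32.6 at day 7 (95% counting interval 5.49 to 1324) and Sox17 one of 65.5 (11.5 to 2612).

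Of the other ligands, Slit1, the Slit of the nervous system, rose with Erg by 5.02 at day 7 and 3.24 at day 3, unlike Slit2 and Slit3. Flrt3, a membrane protein that binds Unc5 and Robo receptors, rose in all 6 comparisons, by 2.49 and 2.58 in SEG. Of 6 matrix partners listed, most of which carry heparan sulfate, 4 fell in SEG, 5 with Erg and 4 with Sox17 at day 7 (of all genes 21.8%, 24.8% and 25%), among them the syndecans Sdc3 and Sdc4 in every comparison, while Gpc1, a glypican that binds Slits, fell with Erg (−1.31) and rose with Sox17 (1.25). Inside the cell, Srgap3, a GAP that binds Robo tails, fell in all 6 comparisons (−1.89 in SEG at day 7), Enah and Evl, actin regulators of the Ena/VASP family, rose in 5 of 6, each missing with Erg at day 3, and Fyn, a kinase that acts with netrin receptors, rose in SEG (1.06) and with Erg (1.89) at day 7. Of 29 intracellular genes tested, 8 rose and 6 fell in SEG at day 7, 10 and 10 with Erg, and 7 and 9 with Sox17. Of all genes, 22.5% rose and 21.8% fell in SEG, 23.7% and 24.8% with Erg, and 29.5% and 25% with Sox17. These are calls by edgeR's test over all genes.

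For each member, the 2 protein-coding genes whose mean log2 CPM over the 8 groups correlated most with it were found among all genes tested, as a description. Robo2 was nearest to S1pr1 (r = 0.997) and Slc22a4 (r = 0.989), Robo4 to Tec (r = 0.992) and St6galnac3 (r = 0.985), and Robo1 to Chuk (r = 0.990) and Map4k3 (r = 0.989). Slit2 was nearest to Tnk2 (r = 0.997) and Nav3 (r = 0.991), and Slit3 to Brwd1 (r = 0.984) and Tm7sf3 (r = 0.974). Ntn1 was nearest to Gtpbp3 (r = 0.996) and Crybg1 (r = 0.980), Ntn4 to Tecrl (r = 0.994) and Selenon (r = 0.984), Unc5c to Gypc (r = 0.990) and Ppp1r3c (r = 0.987), and Unc5b, with the least close match, to Tfpi2 (r = 0.940) and Adgre5 (r = 0.937). No member was among the nearest 2 genes of another. The 8 group means share libraries, medium and scaling, and with so few points high values are found for many genes.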

How the data were processed

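The data are RNA sequencing counts of 24 mouse libraries in 8 groups of 3. An RNeasy kit and Novogene mRNA libraries were used, per the labels' protocols. The authors deposited whole-number counts per Ensembl gene, not normalized; per the submitters' processing notes, Salmon, DESeq2 and mm10 were used, with versions, annotation release, strand and rounding not given here. Salmon shares reads among transcripts, so counts of related genes can be split.

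Here 14804 of 35727 genes passed filterByExpr (minimum count 10), and TMM-scaled counts were fitted with edgeR 4.0.16 (R 4.3.3) as 8 group means over all libraries. Contrasts were tested 2-sided with edgeR's quasi-likelihood test and Benjamini-Hochberg adjustment over all genes within each of 19 comparisons; SE is that of the fitted log2 change (prior count 0.125). The fit was also run on data simulated with no outlying library, which says nothing of the outlying libraries of day 7. Floors (3 counts) and 95% intervals cover counting error only. No 2 libraries were alike within sampling noise.

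Alternatives were RLE size factors, no filter, a replicate block, DESeq2 1.42.0, fits restricted to the compared groups, leaving out each library, and leaving out both outlying day 7 libraries. A replicate block within SEG and Sox17 at day 7 was added after seeing that same-numbered libraries there deviated together (r = 0.690, 0.396 and 0.441). In no other comparison were all 3 pairs over 0.1, and the labels give the numbers without saying what they share. The outlying libraries of both groups carry the same number. Deviations from a group mean cancel out within the group, so a shared outlier can raise all 3 values. These values cannot tell pairing from such an outlier. The members, lists and settings were chosen with earlier results of these data known. Named were all members, genes of the pathway list called in at least 4 of 6 comparisons with control, of which some are described, and each member's 2 nearest genes. Promoter sequences are RefSeq's (GRCm38.p6), and positions and lengths GENCODE's mouse annotation of mm10. Figures were drawn with matplotlib 3.10.9.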

Additional observations from a re-analysis of the deposited data

Results flagged for a closer look

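For 4 members the effect of a factor against control differed between day 7 and day 3 by the test of that difference. The Erg effect on Slit3 differed by −1.43 ± 0.36 on the log2 scale (SE, edgeR adjusted p = 0.00684). The SEG effect on Unc5b differed by 0.92 ± 0.25 (edgeR adjusted p = 0.0216) and on Ntn4 by 0.80 ± 0.24 (0.0361). The Sox17 effect on Unc5c differed by −2.17 ± 0.71 (edgeR adjusted p = 0.0460). The Slit3 call was kept whichever single library was left out. The Unc5b call was lost without any 1 of 3 libraries, the Unc5c call without any 1 of 9 and the Ntn4 call without any 1 of 11.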

How the results depend on the processing

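Of 2139 alternative values of 165 changes, 1915 kept their direction and their side of the threshold, 121 lost a call, 57 gained one without a change of sign, and 46, none called in the fit of all 24 libraries, changed sign, 4 of which then passed. The cause of these shifts was not tested. The share of all genes called under the same setting follows each count in brackets. Fitting only the groups compared gave 2 members called for SEG against Sox17 at day 7 (15.9%), 6 for day 7 against day 3 with Erg (51.8%), 7 in control (60.4%) and 0 with Sox17 (6.18%; edgeR, 0 at an unadjusted p under 0.05). It gave 5 for the change of the Erg effect (45.9%) and 0 for that of the Sox17 effect (8.05%; 1 unadjusted), which was also 0 with no filter on low counts (7.46%; 2 unadjusted). Leaving out both outlying day 7 libraries gave 7 members for day 7 against day 3 in SEG (45.1%) and 5 with Sox17 (40.8%), 4 for the change of the SEG effect (25.2%), 5 for that of the Sox17 effect (24.6%), and 8 for SEG against added effects at day 7 (60.3%). Leaving out single libraries gave 1 to 4 members for day 7 against day 3 with Sox17 (21.2% to 40.1%), 0 to 2 for the change of the SEG effect (9.25% to 10.5%; 2 or 3 unadjusted where 0), 0 to 1 for that of the Sox17 effect (10.6% to 21.3%; 1 or 2 unadjusted where 0) and 3 to 5 for added effects at day 3 (31.4% to 32.6%).

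Signs turned for values near 0 when single libraries were left out, over the following ranges of log2 change. For Robo1 the range was −0.27 to 0.50 for Sox17 against control at day 7, −0.0518 to 0.20 for SEG against Sox17 at day 3, −0.0715 to 0.74 for SEG against Sox17 at day 7, −0.0150 to 0.24 for SEG against added effects at day 3. For Robo2 the range was −0.21 to 0.10 for day 7 against day 3 in SEG, −0.52 to 0.0948 for day 7 against day 3 in Sox17. For Slit2 the range was −0.19 to 0.28 for day 7 against day 3 in SEG, −0.48 to 0.26 for day 7 against day 3 in Sox17, −0.0742 to 0.64 for the shift of the Sox17 effect from day 3 to day 7. For Slit3 the range was −0.16 to 0.35 for Sox17 against control at day 7, −0.37 to 0.16 for day 7 against day 3 in Sox17, −0.32 to 0.11 for the shift of the SEG effect from day 3 to day 7. For Unc5b the range was −0.45 to 0.00519 for Sox17 against control at day 7. For Unc5c the range was −0.99 to 0.16 for day 7 against day 3 in Sox17. For Ntn1 the range was −0.12 to 0.27 for the shift of the Sox17 effect from day 3 to day 7. For Ntn4 the range was −0.17 to 0.24 for day 7 against day 3 in Sox17. Leaving out both outlying libraries turned some of the same values. For day 7 against day 3 in SEG this gave 0.10 for Robo2, 0.28 for Slit2. For day 7 against day 3 in Sox17 this gave 0.11 for Robo2, 0.28 for Slit2, 0.18 for Slit3, 0.18 for Unc5c, 0.26 for Ntn4. For the shift of the SEG effect from day 3 to day 7 this gave 0.11 for Slit3. For Sox17 against control at day 7 this gave 0.0405 for Unc5b. With RLE size factors, no filter and DESeq2, Slit2 for day 7 against day 3 in SEG was 0.00627, 0.00379 and 0.00618, and Ntn4 with Sox17 was 0.00248 with RLE and 0.00251 with DESeq2. The replicate block over all groups turned Robo1 (−0.0531) and Slit3 (−8.93e-05) with Sox17 at day 7 and the change of the Sox17 effect on Ntn1 (−0.00292; −0.0178 with only the groups compared), and ended the Robo4 call with Sox17 at day 3 (adjusted p = 0.0616). Same-numbered libraries deviated together in SEG and Sox17 at day 7 alone, where the outlying libraries of both groups carry the same number. Pairing cannot be told from this shared outlier there. The replicate block within those groups called 9 members (56.7% of all genes). Elsewhere the replicate numbers showed no such agreement. Depth limits Robo4 in Sox17 and control and Unc5c with Sox17, at 19 counts a library or fewer.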
